A study of Caenorhabditis elegans with 4 samples.

Results

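The left arm of chromosome IV of Caenorhabditis elegans was a densely bound autosome arm in this ChIP-seq study of the chromatin protein T09A5.8, and its binding was gathered in its outer part. It is taken here as the left of 3 equal parts of the chromosome without its terminal 500 kb, a stretch of 5.33 Mb, with all positions on build WS220. Peaks that shared at least 1 bp were merged, a merged span was a site where it held at least 1 peak of each ChIP replicate, and a site belonged to the arm by its midpoint. Of the 3117 sites of the genome, 331 lay in this interval. They were chosen by position and by having a peak in each replicate. Since peaks of a single replicate scored lower, as given below, that second condition favours sites with higher scores.

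T09A5.8 carries the symbol cec-3 in the gene names of assembly WBcel235. It encodes a chromodomain protein, and chromodomains are known for binding methylated lysines on histone tails, in this protein those of histone H3 lysine 9. In C. elegans the arms of the autosomes are rich in repeats, in histone H3 lysine 9 methylation and in contacts with the nuclear envelope, whereas the chromosome centres hold more of the broadly expressed genes. Chromosome IV is also known for carrying most of the piRNA loci of the worm germline, which encode small RNAs that silence transposons and other foreign sequence. No annotation or genome sequence of build WS220 was used here, so the sites are given by position and were not set against genes, repeats or piRNA loci.

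The 2 ChIP libraries were made with the rabbit polyclonal antibody SDQ4501 from hermaphrodites of the strain fem-2(b245), labelled as young adults that have a germline and held at 20 °C. The fem-2 gene codes for a phosphatase that acts in sex determination, and the allele b245 was carried by every sample, the 2 input samples included, so no animals with wild-type fem-2 and no animals without T09A5.8 stand against them. Chromatin came from whole worms, so a peak pools all tissues, and it cannot be told in which cells T09A5.8 was bound. The labels do not say that the replicates were separate cultures, so the spread between them may be technical. A replicate list and the series-level list give the position of each peak and a score whose definition is not stated, and they hold no read counts, so the depth was unknown.

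Coverage of the arm was highest in its outer 2500 kb and fell from there toward the chromosome centre. Replicate 1 had 400 peaks and replicate 2 had 417 peaks in the interval, a mean of 76.6 ± 2.25 peaks per Mb (SD, n = 2). These peaks covered 23.9% of the bases in replicate 1 and 25.7% in replicate 2, and the 331 sites covered 25.04%. The outer 2500 kb, which end at 3000000, held 247 of the sites, or 74.6% on 46.9% of the length. Peaks of the replicates covered 40.3% ± 1.93 of the bases of that stretch (SD, n = 2). From 3000001 to 4500000 there were 67 sites, and peaks covered 18.3% ± 1.12 of the bases. From 4500001 to the inner end, a stretch of 1331 kb, there were 17 sites, and peaks covered 3.12% ± 0.400. Each of these steps was larger than the spread between replicates. The borders at 3000000 and 4500000 were chosen after the values were seen, so the steps are a description and have no test.

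**Figure D1:**
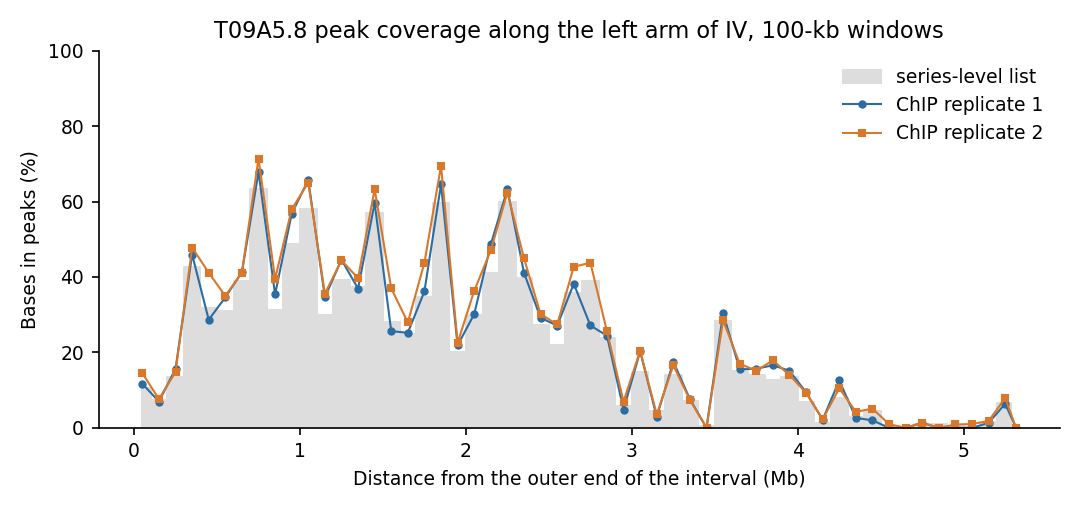
Percent of bases in peaks per 100-kb window against the distance from the outer end of the interval in Mb, for ChIP replicate 1 (circles), ChIP replicate 2 (squares) and the series-level list (grey area). The lines of the replicates run close together, reach 67.8% and 71.4% in the window that starts 700 kb in, and stay under 2% in each window from 4500 to 5200 kb.

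In windows of 500 kb the same course was seen in all 3 lists. The densest window ran from 1500001 to 2000000, with 60 sites and with 48.3% of its bases in peaks of replicate 1 and 49.6% in those of replicate 2. Its neighbour from 1000001 to 1500000 was close to it, at 47.2% and 49.01% with 53 sites, a difference within the spread of the replicates. The sparsest window ran from 5000001 to 5500000, with 1 site and with 0.261% and 0.637% of its bases in peaks. The outermost window, which ends at 1000000, had 21.8% and 25.2% and was thus less covered than each of the 5 windows that followed it. The fifth of these, from 3000001 to 3500000, lies beyond the outer 2500 kb and had 24.3% and 29.3%. Within the outermost window, the first 300 kb had 9 sites and the last 200 kb had 27. The fall toward the centre was not even either, since the window from 4000001 to 4500000 reached 18.7% and 18.5%, above the 9.67% and 9.59% of the window before it. In the series-level list the densest window was the same, at 44.3%, and the sparsest held 0.517%.

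Sites of the outer stretch followed one another closely. The median gap between neighbouring sites over the interval was 3196 bp, and 26.7% of the gaps were shorter than 1 kb. By stretch, the median gap after a site was 2141 bp in the outer 2500 kb, 7710 bp from 3000001 to 4500000 and 41123 bp beyond. When sites within 10 kb of each other were joined into chains, 293 of the 331 sites (88.5%) fell into 48 chains, and 38 sites stood alone, 26 of them beyond 3000000. There were 11 chains of at least 10 sites, which held 139 sites. The chain with the most sites had 16 on 100.7 kb, from 2162933 to 2263600, and 61.5% of its bases lay in sites. The longest spanned 140.4 kb from 1167470 to 1307884, with 12 sites on 73.5% of its bases.

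The 3 longest gaps between sites lay beyond 3000000. The widest, of 381875 bp from 5274458 to 5656332, held 0 peaks of replicate 1, 2 peaks of replicate 2 and 7 series-level peaks that covered 1550 bp. A gap of 347497 bp, from 4925573 to 5273069, was separated from it by a single site of 1388 bp, at 5273070 to 5274457, with scores of 150 and 197 in replicates 1 and 2. It held 0 and 1 replicate peaks and 3 series-level peaks. The next gap measured 139386 bp, from 3880189 to 4019574, and held 0 and 1 replicate peaks. Of the 54 windows of 100 kb in the interval, the last one shorter, 7 held no site midpoint. The outer 2500 kb had none of these among its 25 windows, and 6 of the 14 windows beyond 4500000 were among them.

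The few sites of the inner stretch were mostly weak but included strong ones. Their median score was 171 in replicate 1 and 438 in replicate 2, compared with 554 and 794 in the outer 2500 kb and 761 and 1146 between them. An isolated site of 3264 bp at 5699925 to 5703188 scored 2361 and 3225, the second value being the highest of replicate 2 in the interval. Another at 4880454 to 4883086 scored 1787 and 3100. Scores of 3100 or more in both replicates were found at 32 sites in the outer 2500 kb, at 10 between 3000001 and 4500000 and at 0 beyond.

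The sites ranged in width from 906 to 26512 bp, with a median of 2633 bp and quartiles of 1738 and 4782 bp. The 139 sites of 2 to 5 kb were the most numerous of 4 width classes, with 42.0% of the sites and 32.5% of their bases. The 116 sites of up to 2 kb made up 35.0% of the sites and 13.2% of their bases, the 52 sites of 5 to 10 kb made up 15.7% and 27.3%, and the 24 sites wider than 10 kb made up 7.25% of the sites and 27.0% of their bases. The wide sites were spread along the arm as far as 4394375 to 4407768, with 19 in the outer 2500 kb, 5 from there to 4500000 and 0 beyond.

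**Figure D2:**
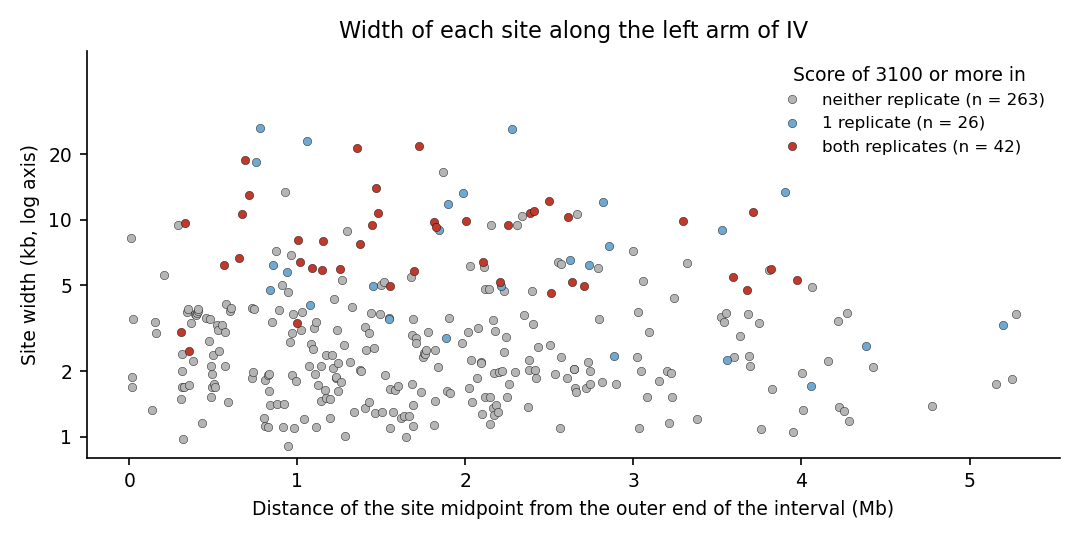
Width of each of the 331 sites in kb (log axis) against the distance of its midpoint from the outer end of the interval in Mb, coloured by whether its highest score reached 3100 in neither (263), 1 (26) or both (42) replicates. The last site above 10 kb lies 3901 kb in, and points thin out beyond that distance.

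Wide sites had higher scores. The score of a site is the highest among its peaks, and wide sites more often held several. Of the 24 sites over 10 kb, 11 held more than 1 peak in replicate 1 and 5 in replicate 2. Among the 116 sites of up to 2 kb, 0 did in either replicate. How far this raised the scores of wide sites was not tested. Across the sites, which are not independent of each other, width and score had a Spearman rho of 0.765 in replicate 1 and 0.728 in replicate 2 (n = 331, a description). Many of the highest scores were equal, since 48 peaks of replicate 1 and 61 of replicate 2 in the interval had a score of exactly 3100, and 1 and 4 peaks had more. Together these were 12.2% and 15.6% of the peaks of the interval. The highest scores below 3100 in the interval, 3031 and 2871, stood at percentiles 87.9 and 83.7 of the whole replicate lists. The share of peaks at 3100 or more was thus close to that of the whole lists. The same share over all sites of the genome was not computed. Of the sites, 42 (12.7%, 95% Wilson interval 9.53 to 16.7) scored 3100 or more in both replicates, 6 in replicate 1 alone and 20 in replicate 2 alone. By width, this was true in both replicates of 0 of the 116 sites of up to 2 kb, 7 of the 139 of 2 to 5 kb, 23 of the 52 of 5 to 10 kb and 12 of the 24 wider ones. Median scores of replicates 1 and 2 rose over these classes from 206 and 279 to 674 and 1057, then to 2808 and 3100, and to 3100 in both.

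The replicates placed the borders closely in most sites where each had a single peak. In 284 of the sites (85.8%) each replicate had a single peak. The left ends of these 2 peaks differed by a median of 89.5 bp and the right ends by 89.0 bp. These medians are less than the 250 to 500 bp length of the fragments that were sequenced. The 90th percentiles, 492 and 490 bp, lay near the upper end of that range. Both ends lay within 200 bp of each other in 175 of the 284 (61.6%). The peak of replicate 2 was the wider one in 160 and that of replicate 1 in 124, with median widths of 2121 and 2015 bp. Over all sites, 89.0% of the site bases, or 1188 of 1335 kb, lay in peaks of both replicates. A site holds a peak of each replicate by rule, which raises this share. Of the bases of the interval in a peak of either replicate, 81.5% lay in peaks of both. Where the number of peaks in a site differed, replicate 1 had more in 29 sites and replicate 2 in 14, so that wide stretches were split more often in replicate 1.

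Scores were higher in replicate 2 in 216 sites, higher in replicate 1 in 75 and equal in 40. Among the 263 sites below 3100 in both, the median ratio of replicate 2 to replicate 1 was 0.52 on the log2 scale. The scores of the 2 lists are not known to be on a common scale. Ranks within each list differed, in either direction, by a median of 6.06 percentile points over all 331 sites, the 40 of equal score included. The scores had a Spearman rho of 0.877 over the 331 sites and of 0.829 over the 263 below 3100. Neighbouring sites are not independent, so these values are a description.

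**Figure D3:**
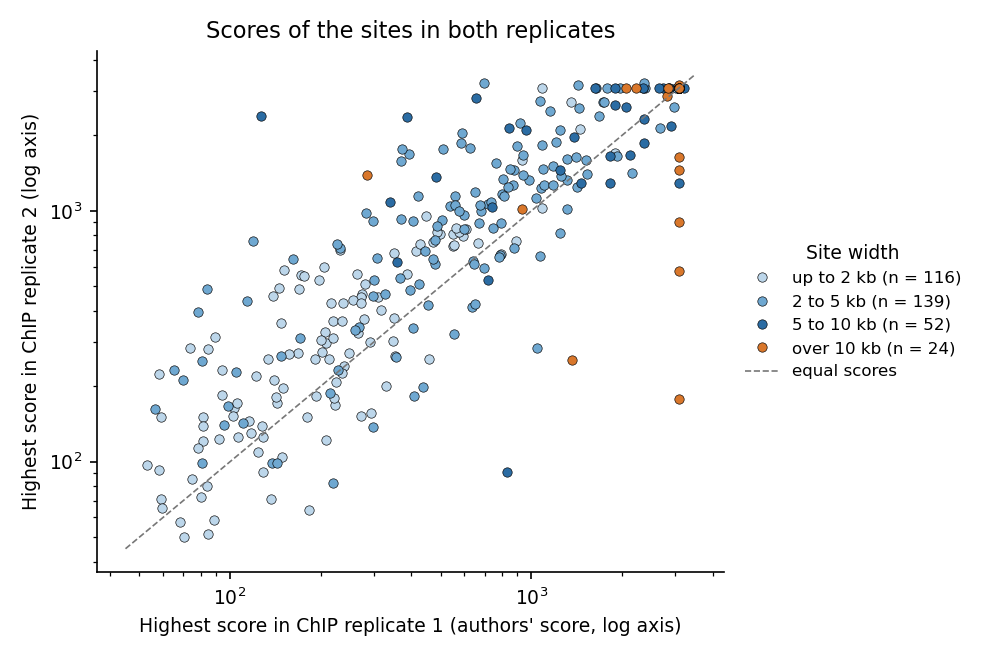
Highest score of each site in ChIP replicate 2 (vertical axis) against that in ChIP replicate 1 (horizontal axis), both on log axes and coloured by site width, with a dashed line at equal scores. Most points lie above the line, with the higher score in replicate 2, points of many sites coincide at 3100 in both replicates, and a few sites wider than 10 kb lie far below the line.

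The highest ranks of the interval, by the mean percentile of the score over the 2 replicates, went to 2210117 to 2231913, with 3100 and 3184, and to 2748267 to 2757735, with 3214 and 3100. The next 40 sites were tied at 3100 in both. The first 8 of the tied sites by position, which complete the 10 named by rule, ran from 805352 to 808388 up to 1203490 to 1216542 and were 2475 to 18792 bp wide. They included the 3 neighbours that open the longest chain, at 1167470 to 1178118, 1179590 to 1198381 and 1203490 to 1216542. The tied sites also included narrow ones, such as 805352 to 808388 with 3037 bp and 853684 to 856158 with 2475 bp.

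The widest site covered 26512 bp from 1263398 to 1289909 and was followed by 2763071 to 2789143 with 26073 bp and 1544119 to 1567065 with 22947 bp. The others among the 8 widest were 2210117 to 2231913, 1841772 to 1863175, 1179590 to 1198381, 1244938 to 1263315 and 2359492 to 2376090, the last with 16599 bp. At 5 of the 8, at least 1 replicate had split the span into 3 or 4 peaks. Their bases lay almost wholly in both replicates all the same, with 89.7% to 99.5% of each span in peaks of both.

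The widest site and its neighbour were the clearest case of a score that differed between the replicates while the covered bases were alike. The 2 sites lay 82 bp apart and together reached from 1244938 to 1289909. In replicate 1 this stretch held 6 peaks, with scores from 323 to 3100, the highest on 1256595 to 1262834 and on 1268106 to 1289909. In replicate 2 it held 3 peaks, of which 1245131 to 1263315 scored 178 and 1264561 to 1289826 scored 578. Both replicates covered 94.3% and 95.8% of the 2 spans jointly.

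**Figure D4:**
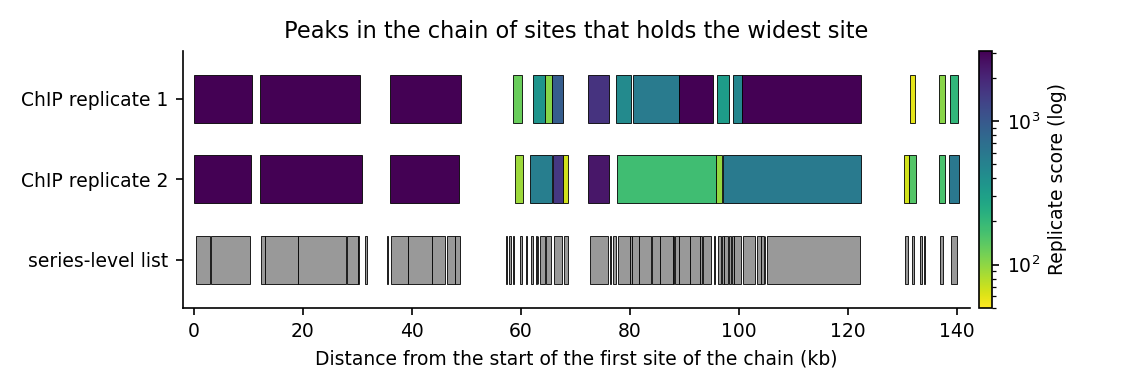
Peaks of ChIP replicate 1, ChIP replicate 2 and the series-level list along the longest chain, by distance in kb from the start of its first site, with replicate peaks coloured by score (log scale). The 3 sites at the left score 3100 in both replicates, whereas the broad stretch right of the middle is split into more peaks with higher scores in replicate 1 and lies in long peaks with lower scores in replicate 2.

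The same stretch supplied 2 of the 5 sites whose percentile differed most between the replicates, by 66.9 and 39.2 points. At 1790031 to 1798930 replicate 1 had 4 peaks with a top score of 831, and replicate 2 had 1 peak of 91.4. At 1421811 to 1435244 the scores were 1361 in 2 peaks and 255 in 1 peak. The opposite was seen at 2522715 to 2528838, where replicate 1 had 2 short peaks with a top score of 127, and replicate 2 had 1 peak of 6124 bp with 2382. Only 35.9% of that span lay in both replicates. In each of these 5 sites, the replicate with fewer peaks had covered most of the site with a single peak. A difference of over 25 percentile points was found at 25 of the 331 sites.

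Peaks of a single replicate were few and mostly weak. Of the peaks in the interval, 93.2% in replicate 1 (373 of 400) and 84.9% in replicate 2 (354 of 417) shared bases with the other list. The 27 peaks of replicate 1 alone had a median score of 79.7 and a highest of 164, and the 63 of replicate 2 alone had a median of 121. Of these peaks, 24 of the 27 and 49 of the 63 lay within 5 kb of a site. The share of all positions of the interval within 5 kb of a site was not computed. In the outer 2500 kb, which held 20 of the 27 and 44 of the 63, the median gap after a site was only 2141 bp. These counts are therefore no sign that the peaks lay closer to sites than other positions did. The series-level list held a peak at 27 of the 27 and at 61 of the 63.

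A strongly scored stretch in replicate 2 had no counterpart in replicate 1. It consisted of peaks at 3247558 to 3252744, with a score of 2475, and at 3252932 to 3261906, with a score of 3100 over 8975 bp. In replicate 1 the nearest peak to the left ended at 3243357. The series-level list held peaks under both, 3 and 4 in number. The next strongest peaks of replicate 2 alone scored 707 at 925578 to 928716, 578 at 4897329 to 4898992 and 513 at 2352876 to 2355225. In replicate 1 alone the strongest were 4034649 to 4036004 with 164, 1778984 to 1781067 with 121 and 1045457 to 1046710 with 112, followed by 2709866 to 2710966 and 919850 to 921904 with 108 each.

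The series-level list resolved the arm into 1423 peaks of a median 390 bp, which covered 22.3% of the interval. Each of the 331 sites held at least 1 of them, with a median of 2, and a median of 72.5% of the bases of a site lay in them. The number grew with width, from a median of 1 in sites of up to 2 kb to 5.5 in sites over 10 kb. The most, 16, lay in 2210117 to 2231913, followed by 14 in 2763071 to 2789143, 13 in 1244938 to 1263315, 11 in 1263398 to 1289909 and 10 in 1421811 to 1435244. These counts describe how the lists divide the same stretches, since the series-level list comes from the same study and is no independent evidence.

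Series-level scores ranked the sites much as the replicate scores did, with a Spearman rho of 0.803 against replicate 1 and 0.814 against replicate 2 (n = 331, a description). They also spread out the sites that were tied at the top of the replicate lists. The sites at 3100 or more in both replicates had a median top series-level score of 56.1, against 16.9 for the others. The highest series-level peaks of the arm scored 111 at 1496260 to 1498827, 105 at 2704807 to 2709065, 95.9 at 4317272 to 4319644, 93.6 at 4207677 to 4216471 and 87.7 at 805600 to 808083.

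Of the series-level peaks, 835 (58.7%) met a peak of each replicate, 73 met replicate 1 only, 191 met replicate 2 only and 324 (22.8%) met no replicate peak. The last group was weak and narrow, with medians of 4.42 in score and 206 bp in width, compared with 11.7 and 737 bp for those found in both. With the whole list divided by score into 4 equal classes, the share without a replicate peak was 47.6% in the lowest class, 33.4% and 11.1% in the next, and 1.504% (6 of 399) in the highest. The strongest peak of this group scored 24.4 over 2192 bp at 2828436 to 2830627. The following scored 20.0 at 4927095 to 4927601, 19 at 3361196 to 3361490, 17.9 at 3368224 to 3368925 and 14.8 at 1830982 to 1831691.

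Long runs of series-level peaks lay under replicate peaks in this arm. Joining peaks less than or equal to 500 bp apart gave 620 runs, of which 19 were longer than 10 kb. Peaks of either replicate covered between 88.0% and 100% of the bases of each of these 19. In the run from 3246920 to 3260942 the covered share of 94.1% came from 2 peaks of replicate 2, with 0 peaks of replicate 1. The longest run measured 26021 bp, from 1263725 to 1289745, inside the widest site. The run with the most peaks, 23, measured 20869 bp from 890450 to 911318. Its scores were moderate, up to 14.8 in the series-level list, with 6 peaks of 127 to 783 in replicate 1 and 5 peaks of 653 to 1150 in replicate 2.

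The arm was then set beside the right arm and the centre of the same chromosome and beside the left arm of chromosome III, cut by the same rule. In peaks per Mb, the left arm of IV exceeded the right arm, at 28.1 ± 3.71, and the centre, at 12.004 ± 0.728, by more than the spread between replicates (SD, n = 2). It had 2.74 ± 0.282 times the peaks of the right arm and, per Mb, 6.39 ± 0.199 times those of the centre. The left arm of III, with 79.6 ± 1.73 peaks per Mb, was close to it, and the lowest replicate value there, 78.4, nearly met the highest of the left arm of IV, 78.2. An exact two-sided permutation test of 2 against 2 replicate values, taken as unpaired, gave p = 0.333 in each of these 3 comparisons. This is the smallest p that the test allows, so no test here could pass 0.05. The peaks of a replicate in all 4 parts come from the same library.

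**Figure D5:**
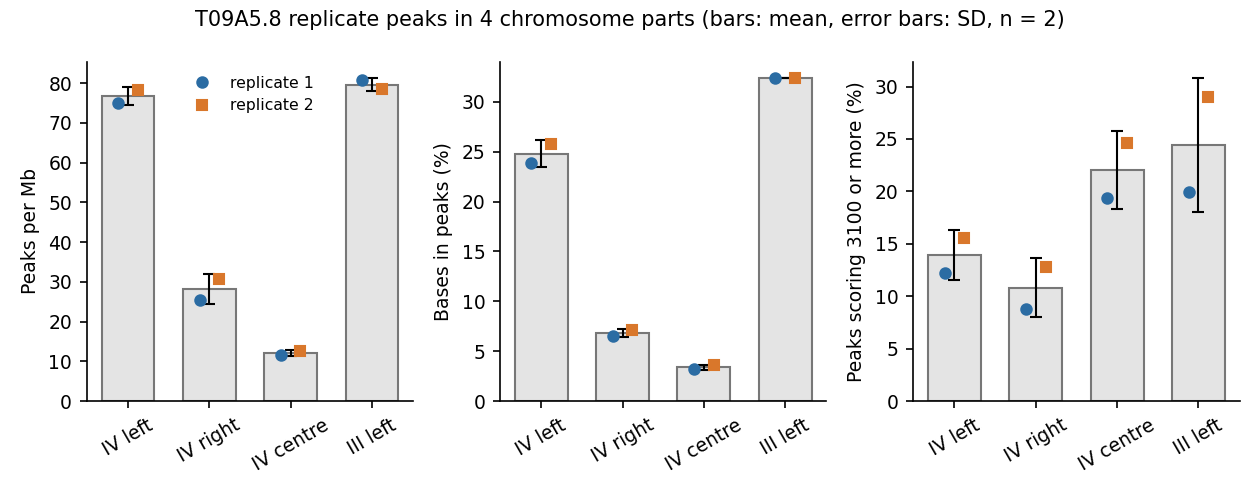
Peaks per Mb, percent of bases in peaks and percent of peaks scoring 3100 or more in 4 chromosome parts, with ChIP replicate 1 (circles), ChIP replicate 2 (squares), their mean (bars) and SD (error bars, n = 2). The left arms of IV and III are alike in peaks per Mb, while the left arm of III is higher in bases covered, at 32.4% in both replicates.

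The left arms of IV and III carried peaks at a like density but of unlike size. Peaks covered 24.8% ± 1.32 of the bases on IV and 32.4% ± 0.00112 on III (SD, n = 2), and their median width was 2019 ± 25.1 bp on IV and 2372 ± 41.0 bp on III. Both differences exceeded the spread of the replicates (exact permutation p = 0.333, the smallest possible). Sites at 3100 or more in both replicates made up 12.7% on IV (95% Wilson interval 9.53 to 16.7) and 23.7% on III (18.9 to 29.3), and sites wider than 10 kb 7.25% and 12.5%. Spacing was similar, with median gaps of 3196 and 3317 bp, and so was the share of sites in chains, at 88.5% and 91.1%. These intervals treat sites as independent, which neighbouring sites are not.

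Against the right arm of IV, the peaks of the left arm were wider, at 2019 ± 25.1 bp compared with 1740 ± 42.8 bp, and their median scores were higher in each replicate, at 441 and 578 compared with 230 and 318. Sites of the right arm lay a median of 17356 bp apart, and 54.4% of them fell into chains. The centre had few peaks, 67 and 73, but a share of 19.4% and 24.7% of these scored 3100 or more, above the 12.2% and 15.6% of the left arm. The share of peaks found in the other replicate was 93.2% and 84.9% in the left arm and 94.1% and 81.1% in the right arm, a difference within the spread of the replicates.

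Both borders of the interval fell in gaps between sites. The outer border lay just before a chain of 4 sites from 504968 to 522912, with 85.0% of its bases in sites. The first sites inside the outer border were 504968 to 513171 and 513425 to 515113, with scores of 360 and 192 in replicate 1 and of 623 and 256 in replicate 2. The last ones outside it were 369963 to 372832 and 377062 to 379434, with 171 and 553 in replicate 1 and 609 and 717 in replicate 2. At the inner border the last sites inside were 5751156 to 5752999 and 5771855 to 5775545, with 83.9 and 114 in replicate 1 and 79.8 and 438 in replicate 2. The first outside were 6094024 to 6100558, which scored 3100 in both replicates, and 6209567 to 6210741, with 285 and 352. A shift of either border by 100 kb outward would therefore have added no site.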

How the data were processed

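The data were peak lists of 2 ChIP libraries for T09A5.8. No values of the 2 input libraries were used here. Per the labels' protocols, formaldehyde (1%, 10 min) was added to ground worms, chromatin was sonicated, 5 µg of antibody was used per precipitation, and fragments of 250 to 500 bp were amplified for 18 cycles. Per the file headers, positions are on WormBase WS220. Their source column names MACS as the caller of the replicate lists and MACS v2 as that of the series-level list. Aligner, thresholds, use of input and pooling of replicates are not given in the sources used here. Every peak carries a score deposited by the authors and undefined in the headers. Percentiles rank a score within its own list. The scores of a site in the 2 replicates were also compared directly, though the lists are not known to share a scale.

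From these lists peaks were merged into sites, and a peak or site belonged to a chromosome part by its midpoint. Chromosome lengths were the largest peak end in any list. A percentile is the rank of a score within its whole replicate list. The comparison parts were the right arm and the centre of chromosome IV and the left arm of chromosome III, the arms without their terminal 500 kb. Replicate values were compared by exact unpaired permutation, and shares of sites carry 95% Wilson intervals that cover counting error only. Sites were named by a rule on rank, width, series-level peaks, replicate difference, gaps and borders. The interval, the tests and the named-site rule were chosen with earlier results of these data known. The merging of peaks was tested on simulated data. Work was done in Python 3.11.15 with pandas 2.3.3, numpy 2.4.6 and scipy 1.17.1, and figures with matplotlib 3.10.9. Depth is unknown, since the lists hold no read counts.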

Additional observations from a re-analysis of the deposited data

How the results depend on the processing

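Of 54 values recomputed for 12 results under 7 settings, 28 were counted as moved. The limit was the SD between replicates for most results. It was the Wilson interval for the share at 3100 or more and a fold change for the number of sites. For rho and for the bases in both replicates no spread was available, so any change counted as moved, however small. Most of these results have no direction, and the left to right ratio stayed above 1 in its 5 alternatives. With each list limited to its peaks above the median score, the sites fell from 331 to 191, their median width rose to 3712 bp, they covered 18.8% of the interval, 22.0% scored 3100 or more in both replicates and 80.6% were in chains. Peaks per Mb were then 41.9, the left to right ratio was 3.62, rho 0.774 and the bases in both replicates 78.0% of those in either, against 81.5%. With the outer of 4 equal parts as the arm, peaks per Mb were 99.3, the ratio 3.22, coverage 32.9%, median width 2686 bp, chained sites 92.3%, rho 0.875 and bases in both 81.8%. An overlap of 50% of the shorter peak gave a rho of 0.877. The series-level list gave 1423 merged peaks of a median 390 bp on 22.3% of the interval, 266.9 per Mb and 98.7% in chains, and the cause was not tested. A chain gap of 5 kb left 77.0% in chains. Single replicates gave 400 to 417 peaks, 75.03 to 78.2 per Mb, a ratio of 2.54 to 2.94, a coverage of 23.9% to 25.7%, widths of 2001 to 2037 bp, 91.1% to 92.5% in chains and 63.8% to 72.1% of series-level peaks found, against 77.2% in either. No paired analysis was possible because no result compares ChIP with input, the sample groups with replicate numbers in common. Between chromosome parts the ratios were taken within each replicate, but the permutation test treated the replicate values as unpaired. A paired test was not run, and 2 pairs allow none that could pass 0.05. Unknown depth means that missing weak peaks cannot be told from missing reads.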
